A study of Homo sapiens with 9 samples.

Results

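The respiratory chain genes described here are the 99 protein-coding genes whose names mark them as subunits, or close relatives of subunits, of complexes I to V, out of 22741 genes listed for all libraries. They were taken by name alone (NDUFA, NDUFB, NDUFC, NDUFS and NDUFV with a number; SDHA to SDHD; UQCR; COX4 to COX8; ATP5; CYC1; and the mitochondrial MT-ND, MT-CO, MT-ATP and MT-CYB genes), with no measured value used. Of the 99, 86 are encoded in the nucleus and 13 in mitochondrial DNA. The nuclear genes comprise 36 subunits of complex I, 4 of complex II, 10 of complex III, 11 of complex IV and 17 of complex V, and 8 further genes whose names fit but which are tissue isoforms, regulators, assembly proteins or a readthrough transcript. The mitochondrial genes comprise 7 subunits of complex I, 1 of complex III, 3 of complex IV and 2 of complex V. RNA-seq had been performed in WiDr, a colon adenocarcinoma cell line with mutant p53, 24 h after transfection with 100 nM of LIMp27 siRNA-1, LIMp27 siRNA-2 or control siRNA (3 libraries each). Both LIMp27 siRNAs were designed against the long noncoding RNA LIMp27, and the comparison asks how the transcriptome of p53-mutant cells differs when this RNA is targeted. The knockdown was transient and in 1 cell line, and both LIMp27 groups were compared with the same 3 control libraries.

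The respiratory chain passes electrons from NADH (through complex I) and from succinate (through complex II) to ubiquinone, on through complex III and cytochrome c to complex IV and oxygen, and the proton gradient built on the way drives ATP synthesis by complex V. Complex II is encoded wholly in the nucleus, whereas the other complexes join nuclear subunits, imported after translation in the cytosol, with core subunits translated inside the mitochondrion. The mitochondrial genes are transcribed as long polycistronic RNAs that are cut into single messengers, so that their steady-state levels depend on processing and stability as well as on transcription.

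Gene counts summed to between 14361629 and 21524623 reads in a library. LIMp27 itself is the gene LINC01356 (ENSG00000215866), and its reads were too few to check the knockdown in these counts. They were 0, 0 and 0 under LIMp27 siRNA-1 and 0, 2 and 1 under LIMp27 siRNA-2, against 0, 0 and 2 under control siRNA. The paper reports that the knockdown was checked by qPCR in the WiDr cells used for RNA-seq. Most epithelial markers were found. Of 10 markers of colon epithelium 8 were listed, with a summed FPKM (fragments scaled to transcript length and library size, as the authors computed them) of 8268 to 8553 under LIMp27 siRNA-1 and 7023 to 7833 under LIMp27 siRNA-2, against 10755 to 11361 under control siRNA, whereas CDX1 and GPA33 were not listed, CDX2 was under 1 FPKM and CDH17 at or near 0. The keratins KRT8 and KRT18 make up most of that sum. The other markers above 1 FPKM were mixed. EPCAM and VIL1 were at higher levels in the LIMp27 libraries. EPCAM had 687 to 702 FPKM under LIMp27 siRNA-1 and 666 to 679.7 under LIMp27 siRNA-2, against 569 to 596 under control siRNA. VIL1 had 54.0 to 57.2 FPKM under LIMp27 siRNA-1 and 84.7 to 87.8 under LIMp27 siRNA-2, against 45.2 to 47.9 under control siRNA. KRT20 had 307 to 334 FPKM under LIMp27 siRNA-1 and 141 to 144 under LIMp27 siRNA-2, against 326 to 350 under control siRNA. CDH1 had 31.8 to 37.6 FPKM under LIMp27 siRNA-1 and 47.5 to 53.7 under LIMp27 siRNA-2, against 37.5 to 42.3 under control siRNA. Of 6 fibroblast markers 2 were listed (COL1A1 and LUM), with a summed FPKM of 1.63 to 2.81 under LIMp27 siRNA-1 and 7.74 to 8.57 under LIMp27 siRNA-2, against 1.32 to 1.72 under control siRNA, a sum in which LUM alone was at 6.50 to 7.85 FPKM under LIMp27 siRNA-2, against 0.804 to 1.05 FPKM under control siRNA. Leukocyte, endothelial and muscle markers summed to less than 1 FPKM each in every library. The part of these shifts in the results below was not tested. Less of a transcript per cell and fewer cells that make it cannot be told apart in such bulk RNA.

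The mitochondrially encoded transcripts were the more abundant by far. Per length, the 13 mitochondrial genes lay between 1214 and 11417 FPKM in the control libraries (means of 3), with a median of 3551 FPKM, whereas the 78 nuclear subunits lay between 0.271 and 1073 FPKM, with a median of 98.2 FPKM. No nuclear subunit reached the lowest mitochondrial one, MT-ND6, a complex I subunit and the single protein encoded on the opposite strand of mitochondrial DNA. Among the mitochondrial genes the 3 core subunits of complex IV and MT-ATP6 stood highest. MT-CO1, the catalytic subunit of cytochrome c oxidase, had an FPKM of 11417 ± 929, MT-CO3 and MT-CO2 had 10551 ± 658 and 9729 ± 639, and MT-ATP6, which forms the proton channel of complex V, had 9290.5 ± 1015 (SD, n = 3 control libraries). The SDs of neighbours in this order overlapped, but within every control library MT-CO1 stood above MT-CO3 and MT-CO3 above MT-CO2. MT-ATP6 was below MT-CO2 in replicates 1 and 2 and above it in replicate 3. The 7 mitochondrial subunits of complex I had a median of 2815 FPKM.

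Nuclear subunits differed widely within each complex. The highest per complex in the control libraries were NDUFB9, an accessory subunit of complex I (321 ± 12.5 FPKM), SDHA, the flavoprotein of complex II (131 ± 4.43 FPKM), UQCRH, the hinge protein of complex III (443 ± 5.16 FPKM), COX7C of complex IV (403 ± 13.8 FPKM) and ATP5F1B, the catalytic beta subunit of complex V (1073 ± 57.6 FPKM). The medians per complex were 62.9 FPKM for complex I, 93.8 for complex II, 139.6 for complex III, 206 for complex IV and 132 for complex V. The lowest nuclear subunits were NDUFA7, NDUFA13, UQCRHL and NDUFV2, all under 4 FPKM, although their proteins (UQCRHL apart) are integral parts of the complexes. NDUFA7, NDUFV2 and NDUFA13 share 32.3%, 28.4% and 21.0% of their exon bases with other annotated genes on the same strand, and UQCRHL is a near copy of UQCRH, so reads of these genes could have been left uncounted or placed elsewhere, and their low values are uncertain. NDUFB8 shares 33.8% and COX8A 34.5% of their exon bases in the same way. In all, 26 nuclear members share some.

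**Figure D1:**
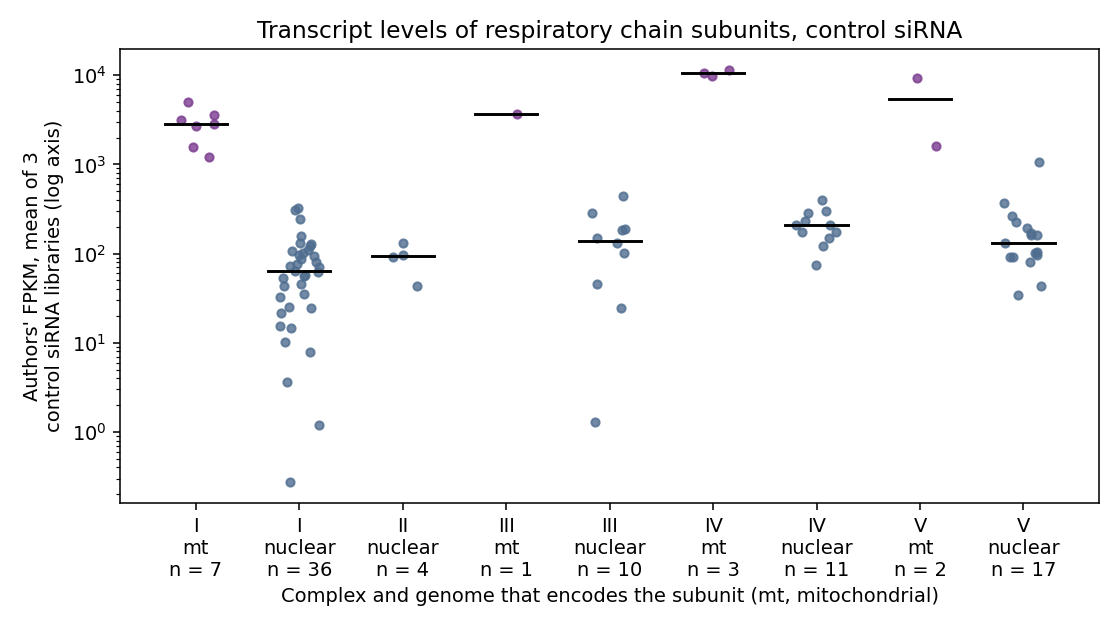
Mean FPKM of each subunit over the 3 control siRNA libraries (vertical log axis) by complex and by the genome that encodes it (horizontal axis). Points are genes and black lines are medians. The 13 mitochondrially encoded genes lie between 1214 and 11417 FPKM, above all 78 nuclear subunits.

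As a share of each library, reads of the 13 mitochondrial genes varied among replicates as much as among groups. They made up 6.95%, 6.55% and 6.02% of reads under LIMp27 siRNA-1 and 7.91%, 6.73% and 6.87% under LIMp27 siRNA-2, against 5.93%, 5.88% and 6.81% under control siRNA. The groups overlapped, and replicate 3 of the control siRNA stood above the other control libraries and replicate 1 of LIMp27 siRNA-2 above its own group. As read shares with no correction of library size, the 86 nuclear members stood higher under LIMp27 siRNA-1. They made up 1.05%, 0.988% and 1.01% of reads under LIMp27 siRNA-1 and 0.944%, 0.966% and 0.932% under LIMp27 siRNA-2, against 0.933%, 0.888% and 0.887% under control siRNA. In these shares the LIMp27 siRNA-1 libraries were all above the control libraries, and those of LIMp27 siRNA-2 overlapped them in 1 library. The separation was not kept in the corrected CPM values defined below. The summed CPM of the 77 nuclear subunits tested was 9432 to 10064 under LIMp27 siRNA-1 and 8965 to 9261 under LIMp27 siRNA-2. Under control siRNA it was 9052 to 9578, so both LIMp27 groups overlapped the control libraries. With 3 libraries a group, an exact permutation test cannot give a two-sided p under 0.10, so no single share was tested.

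**Figure D2:**
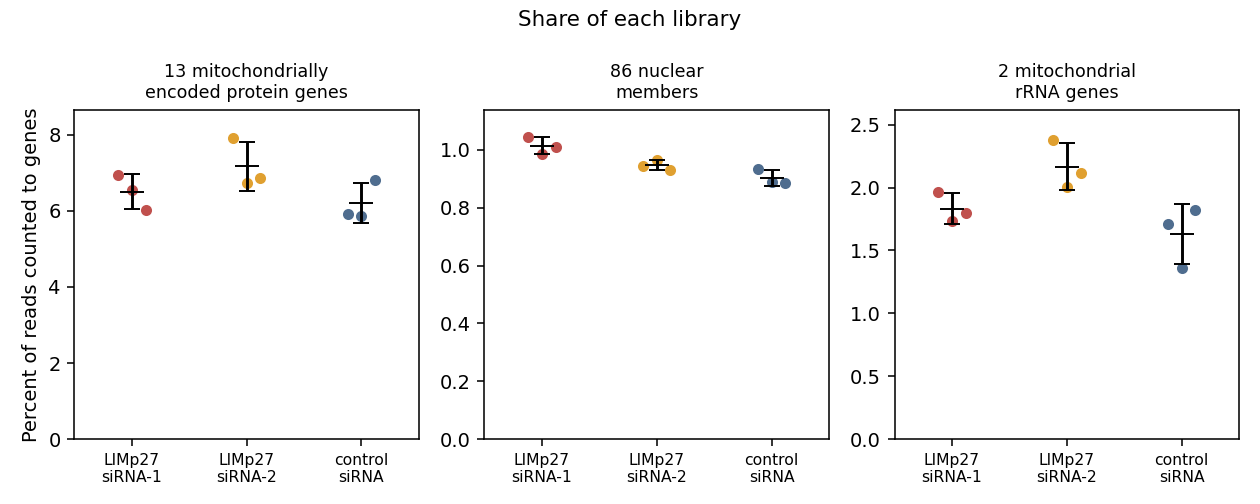
Percent of reads counted to genes (vertical axis, starting at 0) that fell in the 13 mitochondrially encoded protein genes, the 86 nuclear members and the 2 mitochondrial rRNA genes, by group. Points are libraries, and bars are means and SDs (n = 3). The mitochondrial share overlaps between groups, and the nuclear share is highest under LIMp27 siRNA-1 (0.988% to 1.05%). Shares are shown with no correction of library size, and the nuclear separation was not kept after it.

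Differences were tested for each gene with edgeR on the counts (log2 fold change ± SE, p-values adjusted over all genes tested, threshold 0.05), and library values are given as CPM (counts scaled to library size, after TMM correction of that size). The study describes the libraries of a group as biological repeats. Under LIMp27 siRNA-1, 2 of the 13 mitochondrial genes were higher and 1 lower than under control siRNA, where 26.5% of all 14347 genes tested were higher and 28.3% lower. Under LIMp27 siRNA-2, 6 were higher and 0 lower, where 27.7% of 14204 genes were higher and 29.0% lower. The median log2 fold change of the 13 was 0.02 under LIMp27 siRNA-1 and 0.12 under LIMp27 siRNA-2, beside 0.00 and 0.01 over all genes tested. The counts depended on the libraries used. Without replicate 3 of the control siRNA, 7 of the 13 were called under LIMp27 siRNA-1, and without replicate 3 of both groups 11 were. Under LIMp27 siRNA-2, 5 were called without replicate 1 of LIMp27 siRNA-2 alone, and 3 without replicate 1 of both groups.

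The mitochondrial gene that moved most was MT-ND2 (ENSG00000198763), a membrane-arm subunit of complex I at bases 4470 to 5511 of the mitochondrial genome (GRCh38). It had 5589, 5260.3 and 4829 CPM under LIMp27 siRNA-1 and 6203, 5330.0 and 5522 CPM under LIMp27 siRNA-2, against 3695, 3651 and 4276 CPM under control siRNA. Every LIMp27 library was above every control library, with a log2 fold change of 0.44 ± 0.05 for LIMp27 siRNA-1 (edgeR adjusted p = 5.44e-08) and 0.56 ± 0.06 for LIMp27 siRNA-2 (edgeR adjusted p = 1.30e-09). MT-ND3, another membrane-arm subunit, had 1512, 1349.7 and 1377 CPM under LIMp27 siRNA-1 and 1565, 1392 and 1552 CPM under LIMp27 siRNA-2, against 1149, 1022 and 1206 CPM under control siRNA. Its groups did not overlap either, with a log2 fold change of 0.33 ± 0.05 (edgeR adjusted p = 2.69e-06) and 0.43 ± 0.06 (edgeR adjusted p = 1.52e-07). The remaining mitochondrial subunits of complex I did not share this. MT-ND1 was higher under LIMp27 siRNA-2, at 3674, 3084 and 3272 CPM, against 2594, 2599 and 2989 CPM under control siRNA (0.30 ± 0.06, edgeR adjusted p = 5.18e-05), and had a log2 fold change of 0.02 ± 0.05 under LIMp27 siRNA-1 (edgeR adjusted p = 0.753). MT-ND6 had 0.10 ± 0.07 (edgeR adjusted p = 0.221) under LIMp27 siRNA-1 and was higher under LIMp27 siRNA-2 (0.27 ± 0.07, edgeR adjusted p = 0.00179), a call that DESeq2 did not make (adjusted p = 0.0972). MT-ND4, MT-ND4L and MT-ND5 passed the test in neither comparison, with log2 fold changes between −0.08 and 0.04.

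In complex IV the mitochondrial subunits split. MT-CO1 had 16539.8, 15449 and 14125 CPM under LIMp27 siRNA-1 and 20480.1, 17473 and 17019.7 CPM under LIMp27 siRNA-2, against 17692, 17378 and 20223 CPM under control siRNA. All LIMp27 siRNA-1 libraries were below the control libraries (−0.26 ± 0.05, edgeR adjusted p = 0.000153), whereas those of LIMp27 siRNA-2 overlapped them (0.00 ± 0.06, edgeR adjusted p = 0.998). MT-CO3 was higher under LIMp27 siRNA-2, at 10920.4, 9199 and 9735 CPM, against 8336, 8332 and 9313 CPM under control siRNA, with overlapping libraries (0.21 ± 0.05, edgeR adjusted p = 0.00156). MT-CO2 followed it under LIMp27 siRNA-2 (0.17 ± 0.06, edgeR adjusted p = 0.0114), a call lost without replicate 1 of LIMp27 siRNA-2 (adjusted p = 0.178) or without replicate 1 or 2 of the control siRNA (0.0675 and 0.0820, all edgeR). Under LIMp27 siRNA-1, MT-CO2 and MT-CO3 had log2 fold changes of −0.08 and 0.02 and were not called. MT-CYB, the cytochrome b of complex III, had 0.05 and −0.03 under LIMp27 siRNA-1 and LIMp27 siRNA-2, and MT-ATP6 and MT-ATP8 of complex V lay between −0.05 and 0.12, none of them called. MT-ATP8 overlaps MT-ATP6 by 46 bases, 22.2% of its length.

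**Figure D3:**
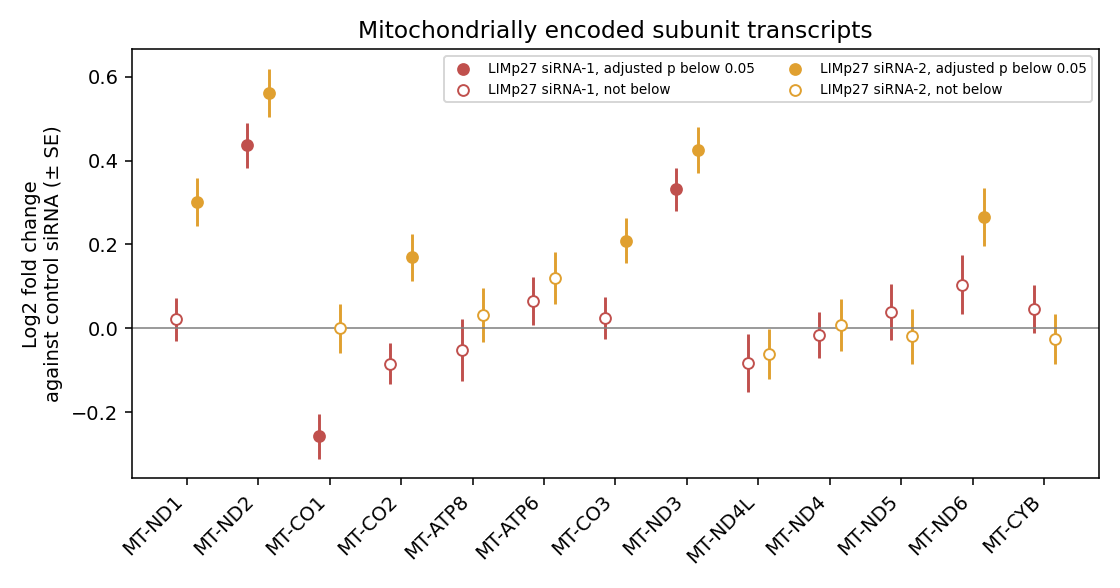
Log2 fold change against control siRNA (vertical axis, ± SE) of the 13 mitochondrially encoded genes, in their order along the genome, for LIMp27 siRNA-1 (red) and LIMp27 siRNA-2 (yellow), 3 libraries each. Filled points had an adjusted p below 0.05. MT-ND2 and MT-ND3 lie above 0 with both, and MT-CO1 lies at −0.26 under LIMp27 siRNA-1 and 0.00 under LIMp27 siRNA-2.

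Relative to each other, some mitochondrial transcripts were steady among replicates and scarcer ones were not. MT-ND2 took 8.19%, 8.22% and 8.23% of the reads of the 13 genes under LIMp27 siRNA-1 and 7.97%, 8.13% and 8.21% under LIMp27 siRNA-2, against 5.94%, 5.97% and 5.98% under control siRNA. MT-CO1 took 24.2%, 24.1% and 24.1% under LIMp27 siRNA-1 and 26.3%, 26.6% and 25.3% under LIMp27 siRNA-2, against 28.4%, 28.4% and 28.3% under control siRNA. For neither gene did a LIMp27 library overlap the control libraries, and the control library with the high mitochondrial total did not stand apart in either share. MT-CYB took 7.13 ± 0.14% under LIMp27 siRNA-1 and 6.13 ± 0.04% under LIMp27 siRNA-2, against 6.79 ± 0.02% under control siRNA (SD, n = 3), so that it lay on opposite sides of the control with the 2 siRNAs. MT-ND4 took 11.3 ± 0.23% under LIMp27 siRNA-1 and 10.3 ± 0.11% under LIMp27 siRNA-2, against 11.2 ± 0.22% under control siRNA. The scarce MT-ND6 took 1.12 ± 0.105% under LIMp27 siRNA-1 and 1.13 ± 0.0887% under LIMp27 siRNA-2, against 1.03 ± 0.0342% under control siRNA. A share is bound to the other 12 genes, and these values show unequal change, not which gene changed.

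Among the nuclear members, 32 of the 82 tested were higher and 11 lower under LIMp27 siRNA-1, and 21 of 81 were higher and 11 lower under LIMp27 siRNA-2. The share called, 43 of 82 and 32 of 81, stands beside 54.8% and 56.7% of all genes tested. Their changes were small. A log2 fold change of at least 0.5 in size was reached by 3 called nuclear members under LIMp27 siRNA-1 (1 higher, 2 lower) and by 4 under LIMp27 siRNA-2 (1 higher, 3 lower), beside 21.8% and 28.1% of all genes tested (12.5% higher and 9.21% lower, and 14.1% higher and 14.0% lower). Counting MT-ND2, these were 3 and 5 of the 99 members. In CPM, the LIMp27 siRNA-1 libraries were all above the control libraries for 32 of the 95 members tested and all below for 13, beside 28.8% and 30.9% of all genes. The LIMp27 siRNA-2 libraries were all above for 26 of 94 and all below for 12, beside 29.8% and 31.4%. The median log2 fold change of the 77 nuclear subunits tested was 0.11 under LIMp27 siRNA-1 and 0.06 under LIMp27 siRNA-2, with interquartile ranges from −0.02 to 0.25 and from −0.05 to 0.17, narrower than those over all genes (−0.25 to 0.30 and −0.31 to 0.34). Both comparisons share the control libraries. Of the nuclear members, 17 were called higher in both, 5 lower in both (SDHD, UQCRFS1, CYC1, ATP5F1A and COX7A2L), and 2 were called higher under LIMp27 siRNA-1 and lower under LIMp27 siRNA-2 (UQCRC2 and ATP5PB).

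Complex I, the largest complex, held more of the higher transcripts than any other. Of its 35 nuclear subunits tested, 16 were higher and 2 lower under LIMp27 siRNA-1, and 14 were higher and 0 lower under LIMp27 siRNA-2, with medians of 0.14 and 0.13. These counts, and those of the complexes described next, stand beside 26.5% higher and 28.3% lower of all genes tested under LIMp27 siRNA-1, and 27.7% higher and 29.0% lower under LIMp27 siRNA-2. The summed CPM of the 36 genes was 2760.0 to 2939 under LIMp27 siRNA-1 and 2761 to 2853 under LIMp27 siRNA-2, against 2426 to 2597 under control siRNA. The LIMp27 libraries were all above the control libraries in this sum.

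Complex I genes that were higher with both siRNAs included NDUFS5, NDUFS8, NDUFB1, NDUFA3, NDUFA6, NDUFB4, NDUFS6, NDUFA2, NDUFA5, NDUFB11 and NDUFA1, with log2 fold changes between 0.17 and 0.49. NDUFA5, an accessory subunit of the matrix arm named for its size of change, averaged 73.8 ± 4.45 CPM under LIMp27 siRNA-1 and 65.3 ± 5.55 CPM under LIMp27 siRNA-2, against 52.6 ± 4.68 CPM under control siRNA (SD, n = 3), with log2 fold changes of 0.49 ± 0.06 (edgeR adjusted p = 8.48e-08) and 0.32 ± 0.07 (edgeR adjusted p = 0.000461). NDUFB5, a membrane-arm subunit, had 66.8, 70.6 and 66.3 CPM under LIMp27 siRNA-1 and 52.9, 52.2 and 49.9 CPM under LIMp27 siRNA-2, against 52.1, 49.5 and 55.8 CPM under control siRNA. It was higher under LIMp27 siRNA-1 (0.37 ± 0.06, edgeR adjusted p = 1.95e-06) and not called under LIMp27 siRNA-2 (−0.01 ± 0.07, edgeR adjusted p = 0.878), and the siRNAs differed when compared directly (−0.38 ± 0.06, edgeR adjusted p = 8.01e-06). NDUFS4, a subunit of the NADH-oxidising module whose loss causes Leigh syndrome, had 35.3, 35.1 and 32.4 CPM under LIMp27 siRNA-1 and 45.2, 43.1 and 46.2 CPM under LIMp27 siRNA-2, against 39.4, 36.6 and 34.7 CPM under control siRNA. It was higher under LIMp27 siRNA-2 (0.29 ± 0.07, edgeR adjusted p = 0.00115) and not called under LIMp27 siRNA-1 (−0.11 ± 0.07, edgeR adjusted p = 0.192). NDUFC2 was lower under LIMp27 siRNA-1, at 27.8, 23.3 and 24.6 CPM, against 33.0, 28.6 and 29.8 CPM under control siRNA (−0.27 ± 0.08, edgeR adjusted p = 0.00412), a call lost without replicate 1 of the control siRNA (edgeR adjusted p = 0.0539). The abundant NDUFB9 had log2 fold changes of −0.00 and −0.08 and was not called.

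By structural part as assigned here, the quinone-binding Q module had medians of 0.31 under LIMp27 siRNA-1 and 0.32 under LIMp27 siRNA-2 (3 of 5 genes higher with each). NDUFA9 (−0.08 and 0.05, not called) was counted in the P module, and medians of so few genes depend on such assignments. The P module, mostly of the membrane arm, had 10 of 21 genes higher and 2 lower under LIMp27 siRNA-1. Under LIMp27 siRNA-2 it had 7 higher and 0 lower, and the medians were 0.22 and 0.10. The NADH-oxidising N module had 3 and 4 of 9 genes higher and 0 lower, with medians of −0.02 and 0.13. The core flavoprotein NDUFV1 and the iron-sulfur subunit NDUFS1, both of the N module, passed in neither comparison (log2 fold changes of −0.02 and 0.08, and −0.00 and −0.08).

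In complex II, succinate dehydrogenase, 1 of 4 subunits stood out. SDHD (ENSG00000204370, chr11:112086773-112120013 of GRCh38, plus strand), a membrane anchor of the complex and a tumor suppressor in paraganglioma, had 51.4, 48.3 and 47.5 CPM under LIMp27 siRNA-1 and 25.3, 22.3 and 19.3 CPM under LIMp27 siRNA-2, against 81.4, 77.9 and 89.3 CPM under control siRNA. The 3 groups did not overlap, and LIMp27 siRNA-2 lay furthest from the control siRNA. SDHD shares 11.2% of its exon bases on the same strand with 1 other annotated gene, which was not listed. The log2 fold change was −0.76 ± 0.06 under LIMp27 siRNA-1 (edgeR adjusted p = 4.29e-12) and −1.88 ± 0.08 under LIMp27 siRNA-2 (edgeR adjusted p = 1.07e-17), and −1.11 ± 0.08 of LIMp27 siRNA-2 over LIMp27 siRNA-1 (edgeR adjusted p = 1.15e-12). The other membrane anchor, SDHC, had 111, 119 and 116 CPM under LIMp27 siRNA-1 and 95.6, 107 and 102 CPM under LIMp27 siRNA-2, against 99.8, 97.8 and 99.0 CPM under control siRNA. It was higher under LIMp27 siRNA-1 (0.23 ± 0.05, edgeR adjusted p = 0.000165) and not called under LIMp27 siRNA-2 (0.05 ± 0.06, edgeR adjusted p = 0.53). SDHA was lower under LIMp27 siRNA-1, at 169.7, 165 and 176 CPM, against 198, 187 and 186 CPM under control siRNA (−0.16 ± 0.05, edgeR adjusted p = 0.00432), a call lost without replicate 1 of the control siRNA (edgeR adjusted p = 0.0596). Under LIMp27 siRNA-2 it had 0.09 ± 0.05 (edgeR adjusted p = 0.152). The iron-sulfur subunit SDHB had 0.09 and 0.07 and was not called.

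In complex III the difference between the siRNAs was widest. CYC1 (ENSG00000179091, chr8:144095027-144097525 of GRCh38), cytochrome c1, which hands electrons to cytochrome c, had 203, 194 and 199 CPM under LIMp27 siRNA-1 and 55.8, 56.8 and 42.8 CPM under LIMp27 siRNA-2, against 232, 226 and 204 CPM under control siRNA. Under LIMp27 siRNA-2 every library was far below every control library, a 0.237-fold level (log2 −2.08 ± 0.08, edgeR adjusted p = 3.60e-19), whereas under LIMp27 siRNA-1 the difference was −0.15 ± 0.05 (edgeR adjusted p = 0.0106), a call lost without replicate 1 of the control siRNA (edgeR adjusted p = 0.128) or replicate 2 of LIMp27 siRNA-1 (0.0552). The direct difference of LIMp27 siRNA-2 from LIMp27 siRNA-1 was −1.92 ± 0.07 (edgeR adjusted p = 1.14e-19). UQCRFS1, the Rieske iron-sulfur protein, had 143, 139 and 151 CPM under LIMp27 siRNA-1 and 127, 123 and 127 CPM under LIMp27 siRNA-2, against 178, 163 and 158 CPM under control siRNA. It was below every control library with both siRNAs (−0.21 ± 0.05, edgeR adjusted p = 0.000784, and −0.40 ± 0.06, edgeR adjusted p = 6.11e-07). UQCRC2, a core protein of the complex that was named for its opposite calls, averaged 148 ± 0.954 CPM under LIMp27 siRNA-1 and 122 ± 3.48 CPM under LIMp27 siRNA-2, against 134 ± 3.68 CPM under control siRNA (SD, n = 3). It was higher under LIMp27 siRNA-1 (0.15 ± 0.04, edgeR adjusted p = 0.00695) and lower under LIMp27 siRNA-2 (−0.13 ± 0.06, edgeR adjusted p = 0.0471). The call under LIMp27 siRNA-2 was lost without replicate 1 of the control siRNA. Calls among the small subunits were mixed. UQCR10 was higher under LIMp27 siRNA-1 (0.29 ± 0.05, edgeR adjusted p = 4.87e-06), UQCRB was higher with both (0.20 ± 0.05, edgeR adjusted p = 0.00084, and 0.21 ± 0.05, edgeR adjusted p = 0.00154), and UQCRH was lower under LIMp27 siRNA-2 (−0.13 ± 0.05, edgeR adjusted p = 0.0281), a call lost without replicate 1 of the control siRNA (edgeR adjusted p = 0.1003). Over the complex, 4 of 10 nuclear subunits were higher and 2 lower under LIMp27 siRNA-1, and 2 higher and 4 lower under LIMp27 siRNA-2.

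Complex IV, cytochrome c oxidase, had the narrowest range of changes among the nuclear subunits when both comparisons with control siRNA were pooled, with 3 of 11 higher and 2 lower under LIMp27 siRNA-1 and 2 higher and 0 lower under LIMp27 siRNA-2. Its log2 fold changes lay between −0.25 and 0.26. Under LIMp27 siRNA-1 alone, complex III was as narrow (−0.21 to 0.29). NDUFA4, first taken for a complex I subunit and now placed in complex IV, had 172, 162 and 157 CPM under LIMp27 siRNA-1 and 150.0, 148 and 164 CPM under LIMp27 siRNA-2, against 140.2, 136 and 136 CPM under control siRNA. It was above every control library with both siRNAs (0.26 ± 0.05, edgeR adjusted p = 2.52e-05, and 0.17 ± 0.06, edgeR adjusted p = 0.00912). COX7C had 257, 223 and 239 CPM under LIMp27 siRNA-1 and 300.3, 297 and 293 CPM under LIMp27 siRNA-2, against 292, 272 and 290.5 CPM under control siRNA. It was lower under LIMp27 siRNA-1 (−0.25 ± 0.05, edgeR adjusted p = 8.65e-05) and overlapped the control under LIMp27 siRNA-2 (0.07 ± 0.05, edgeR adjusted p = 0.269). COX8A was higher with both, COX6B1 was higher and COX5A lower under LIMp27 siRNA-1, and COX4I1, COX5B, COX6A1, COX6C, COX7A2 and COX7B passed in neither comparison.

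In complex V, ATP synthase, most calls were higher under LIMp27 siRNA-1 and lower under LIMp27 siRNA-2. Under LIMp27 siRNA-1, 6 of 17 nuclear subunits were higher and 1 lower (median 0.11), and under LIMp27 siRNA-2 2 were higher and 5 lower (median −0.03). None of the 5 subunits of the F1 head was called higher in either comparison. ATP5F1A, the alpha subunit, had 359, 357 and 372 CPM under LIMp27 siRNA-1 and 369, 366 and 364 CPM under LIMp27 siRNA-2, against 411, 402 and 393 CPM under control siRNA. It was below the control with both (−0.14 ± 0.04, edgeR adjusted p = 0.00423, and −0.13 ± 0.05, edgeR adjusted p = 0.0272). The call under LIMp27 siRNA-1 was lost without replicate 1 or 2 of both groups (edgeR adjusted p = 0.0835 and 0.0509). The call under LIMp27 siRNA-2 was lost without replicate 1 of the control siRNA (edgeR adjusted p = 0.113) or of LIMp27 siRNA-2 (0.0554). ATP5F1B had 846, 857 and 886 CPM under LIMp27 siRNA-1 and 725, 789.9 and 822 CPM under LIMp27 siRNA-2, against 954, 934 and 864 CPM under control siRNA. It was lower under LIMp27 siRNA-2 (−0.23 ± 0.05, edgeR adjusted p = 0.000524) and not called under LIMp27 siRNA-1 (−0.08 ± 0.04, edgeR adjusted p = 0.106). Of the 12 stalk and membrane (Fo) subunits, 6 were higher and 0 lower under LIMp27 siRNA-1 and 2 higher and 2 lower under LIMp27 siRNA-2. ATP5PB (ENSG00000116459, chr1:111448864-111462773 of GRCh38), subunit b of the peripheral stalk, had 278, 274 and 264 CPM under LIMp27 siRNA-1 and 179, 171 and 177 CPM under LIMp27 siRNA-2, against 239.6, 229 and 240.0 CPM under control siRNA. The LIMp27 siRNA-1 libraries were all above and the LIMp27 siRNA-2 libraries all below the control libraries (0.21 ± 0.04, edgeR adjusted p = 0.000164, and −0.42 ± 0.05, edgeR adjusted p = 5.93e-08). ATP5MC2, which encodes subunit c of the rotor ring, had 159, 149 and 156 CPM under LIMp27 siRNA-1 and 153, 158 and 133 CPM under LIMp27 siRNA-2, against 119, 115 and 118 CPM under control siRNA. It was higher with both (0.40 ± 0.05, edgeR adjusted p = 1.33e-08, and 0.34 ± 0.06, edgeR adjusted p = 2.17e-05), whereas ATP5MC1 and ATP5MC3 encode the same mature protein and were each called once. ATP5MC1 was higher under LIMp27 siRNA-1 (0.28, edgeR adjusted p = 6.70e-05) and had 0.02 under LIMp27 siRNA-2. ATP5MC3 was lower under LIMp27 siRNA-2 (−0.17, edgeR adjusted p = 0.0099) and had 0.10 under LIMp27 siRNA-1. The ATP5MC3 call was lost without replicate 1 of the control siRNA. ATP5MD was higher under LIMp27 siRNA-2, at 132, 125 and 127 CPM, against 109, 99.3 and 105 CPM under control siRNA (0.30 ± 0.06, edgeR adjusted p = 5.46e-05).

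**Figure D4:**
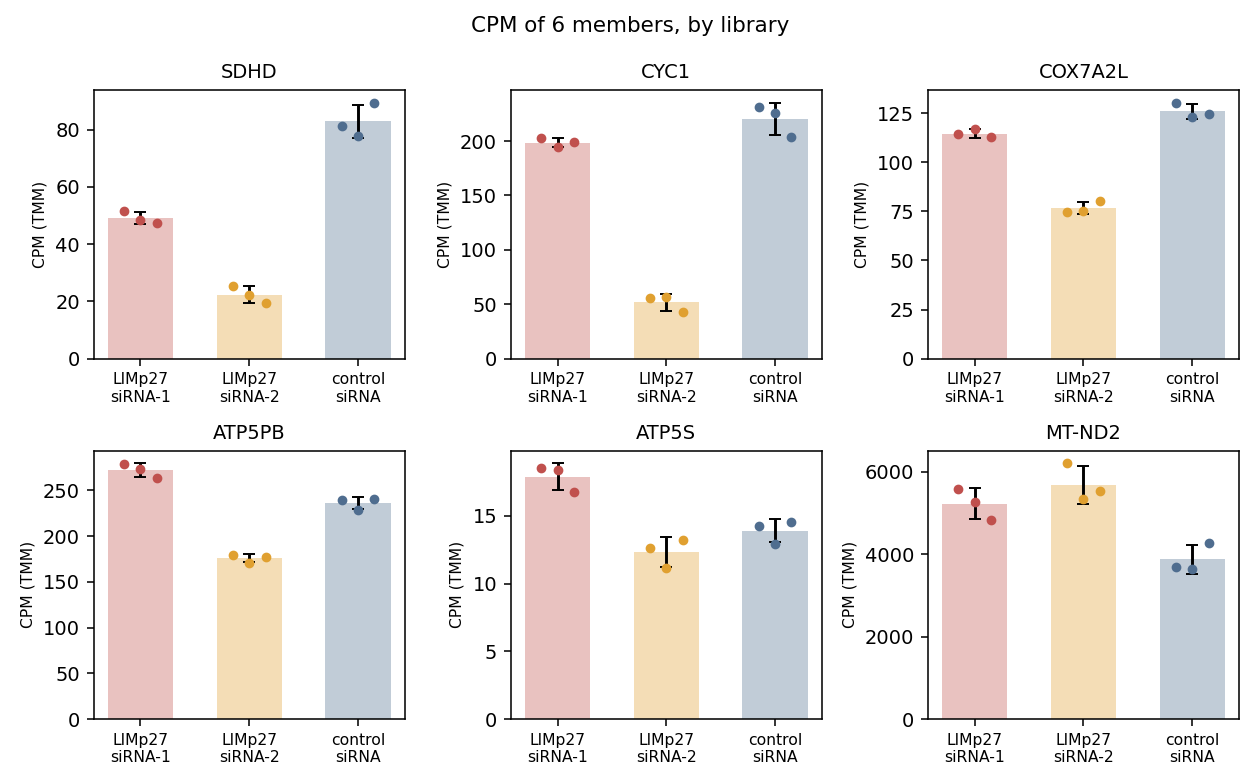
CPM after TMM scaling (vertical axes, starting at 0) of SDHD, CYC1, COX7A2L, ATP5PB, ATP5S and MT-ND2 under LIMp27 siRNA-1, LIMp27 siRNA-2 and control siRNA. Each point is a library, with bars for the mean and whiskers for the SD (n = 3). The CYC1 libraries lie between 42.8 and 56.8 CPM under LIMp27 siRNA-2 and above all of these in the other groups.

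The 8 genes that the names took in without being subunits of these complexes in this tissue behaved separately. COX7A2L, a supercomplex assembly factor that joins complexes III and IV, had 114, 117 and 113 CPM under LIMp27 siRNA-1 and 74.6, 75.3 and 80.2 CPM under LIMp27 siRNA-2, against 130.2, 123 and 125 CPM under control siRNA. It was lower under LIMp27 siRNA-2 (−0.71 ± 0.06, edgeR adjusted p = 1.84e-11) and slightly lower under LIMp27 siRNA-1 (−0.13 ± 0.05, edgeR adjusted p = 0.0164), a call lost without replicate 1 of the control siRNA (edgeR adjusted p = 0.119) or replicate 3 of LIMp27 siRNA-1 (0.0684). ATP5IF1, the inhibitor of ATP hydrolysis by complex V, had 77.7, 77.0 and 78.1 CPM under LIMp27 siRNA-1 and 69.1, 69.4 and 65.3 CPM under LIMp27 siRNA-2, against 64.1, 56.4 and 55.5 CPM under control siRNA. It was higher with both (0.41 ± 0.06, edgeR adjusted p = 4.39e-07, and 0.22 ± 0.07, edgeR adjusted p = 0.00633). ATP5S, a coupling factor-like protein, was higher under LIMp27 siRNA-1, at 18.5, 18.4 and 16.8 CPM, against 14.2, 12.9 and 14.5 CPM under control siRNA (0.36 ± 0.09, edgeR adjusted p = 0.0012), and not called under LIMp27 siRNA-2 (−0.16 ± 0.11, edgeR adjusted p = 0.2). The readthrough transcript ATP5MF-PTCD1 shares 88.3% of its exon bases with other genes and had 1 to 2 CPM. Its call under LIMp27 siRNA-1 (−0.69 ± 0.28, edgeR adjusted p = 0.0361) was not made by DESeq2 (adjusted p = 0.0794) and was lost on leaving out replicate 1 or 3 of the control siRNA or replicate 1 or 2 of LIMp27 siRNA-1 (edgeR adjusted p of 0.104, 0.0664, 0.0734 and 0.108). The tissue isoforms COX4I2, COX6B2 and COX7A1 were at or near 0 and were not tested, nor was the lowest complex I subunit, NDUFA7. NDUFA4L2, a relative of NDUFA4 induced by hypoxia in other cells, had less than 1 CPM in every library and was not tested for LIMp27 siRNA-2 against control siRNA.

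Compared directly, so that the control libraries played no part, 9 of 82 nuclear members tested were higher and 22 lower under LIMp27 siRNA-2 than under LIMp27 siRNA-1, where 23.1% of all 14415 genes tested were higher and 22.4% lower. Of the 13 mitochondrial genes 5 were higher (MT-ND1, MT-ND2, MT-CO1, MT-CO2 and MT-CO3) and 0 lower. Together these were 36 of 95 members called, beside 45.4% of all genes. The LIMp27 siRNA-2 libraries were all above those of LIMp27 siRNA-1 in CPM for 11 of the 95 and all below for 26, beside 25.3% and 27.2%. The median was −0.04 for the nuclear subunits and 0.10 for the mitochondrial genes, beside 0.01 over all genes tested. MT-ND1 differed by 0.29 ± 0.06 (edgeR adjusted p = 6.26e-05), and the 3 mitochondrial subunits of complex IV moved alike (0.27 ± 0.06 for MT-CO1, edgeR adjusted p = 0.000327, 0.26 ± 0.06 for MT-CO2, edgeR adjusted p = 0.000259, and 0.20 ± 0.06 for MT-CO3, edgeR adjusted p = 0.00447). The MT-CO3 call was lost without replicate 1 of LIMp27 siRNA-2 (edgeR adjusted p = 0.0659) or replicate 3 of LIMp27 siRNA-1 (0.0528). That of MT-ND2 (0.14 ± 0.05, edgeR adjusted p = 0.0423) was lost without the same libraries (0.325 and 0.310). It was also lost without replicate 2 of LIMp27 siRNA-1 (0.0782), or without replicate 1, 2 or 3 of both groups (0.0740, 0.0596 and 0.278, all edgeR). DESeq2 did not make the MT-ND2 call (adjusted p = 0.0801). Nor did edgeR over all 9 libraries at once (adjusted p = 0.0874) or with scaling without mitochondrial genes (0.0679). Without replicate 3 of LIMp27 siRNA-1, 3 of the 13 were called.

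By complex, 5 of 10 nuclear subunits of complex III were lower under LIMp27 siRNA-2 than under LIMp27 siRNA-1 and 0 higher. In complex V 7 of 17 were lower and 1 higher, in complex II 2 of 4 were lower and 1 higher, and in complex IV 1 of 11 was lower and 1 higher. Of the genes that are no subunits, 3 of 5 tested were lower and 0 higher. In complex I 6 were higher and 4 lower, of 35 tested. A log2 difference of at least 0.5 in size was reached by 5 members, all lower under LIMp27 siRNA-2, beside 17.8% of all genes tested (7.64% higher and 10.2% lower). These were CYC1 and SDHD, given above, ATP5PB (−0.62 ± 0.05, edgeR adjusted p = 1.13e-11), COX7A2L (−0.57 ± 0.06, edgeR adjusted p = 9.64e-10) and ATP5S (−0.52 ± 0.10, edgeR adjusted p = 6.33e-05). The largest upward differences among called nuclear members were those of NDUFS4 (0.41 ± 0.07, edgeR adjusted p = 1.43e-05), COX7C (0.32 ± 0.05, edgeR adjusted p = 7.06e-06), NDUFC2 (0.29 ± 0.09, edgeR adjusted p = 0.00634) and SDHA (0.26 ± 0.05, edgeR adjusted p = 0.000145). Without replicate 3 of LIMp27 siRNA-2, NDUFC2 was not called (0.19, edgeR adjusted p = 0.0766).

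Promoters of many respiratory genes carry sites for NRF1, a transcription factor that drives nuclear genes of the mitochondrion. The motif GCGCANGCGC (GCGCNTGCGC on the other strand), a core of such sites, was sought in windows of 250 bases before to 50 after the RefSeq start (GRCh38.p14), without regard to strand. It was found for 16 of 68 nuclear members with a window (23.5%), and for 1905 of 27305 genes of all kinds (6.98%). Of the 16, 4 were higher, 3 lower and 9 not called under LIMp27 siRNA-1, and 3 were higher, 2 lower and 11 not called under LIMp27 siRNA-2. Among all nuclear members with a window, with or without the motif, 25 were higher, 8 lower and 33 not called under LIMp27 siRNA-1, and 18 were higher, 7 lower and 40 not called under LIMp27 siRNA-2. The promoters of 4 members with a match, whose transcripts were lower with both siRNAs (SDHD and UQCRFS1), higher with both (NDUFB4) or lower under LIMp27 siRNA-1 (SDHA), are shown to set the same motif beside unlike changes. Each is the 250 bases before the RefSeq start, 5′ to 3′ on the gene's strand, with matches in capitals.
SDHD, chr11:112086623-112086872, plus strand: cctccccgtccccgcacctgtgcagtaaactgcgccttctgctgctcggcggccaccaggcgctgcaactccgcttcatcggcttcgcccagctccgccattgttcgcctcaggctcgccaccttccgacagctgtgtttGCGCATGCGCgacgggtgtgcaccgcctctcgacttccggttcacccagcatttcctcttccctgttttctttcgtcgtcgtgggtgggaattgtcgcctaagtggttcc
UQCRFS1, chr19:29213152-29213401, minus strand: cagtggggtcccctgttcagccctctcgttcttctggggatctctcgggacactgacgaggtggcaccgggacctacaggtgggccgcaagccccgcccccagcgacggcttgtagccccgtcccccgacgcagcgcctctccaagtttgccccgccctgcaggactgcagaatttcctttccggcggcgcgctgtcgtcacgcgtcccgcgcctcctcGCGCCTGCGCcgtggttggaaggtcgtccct
NDUFB4, chr3:120596086-120596335, plus strand: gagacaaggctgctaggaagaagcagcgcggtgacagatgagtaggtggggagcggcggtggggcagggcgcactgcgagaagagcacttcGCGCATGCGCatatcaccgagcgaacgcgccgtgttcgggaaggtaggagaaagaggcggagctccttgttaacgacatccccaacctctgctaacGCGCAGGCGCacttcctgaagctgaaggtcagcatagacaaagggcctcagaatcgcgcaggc
SDHA, chr5:218070-218319, plus strand: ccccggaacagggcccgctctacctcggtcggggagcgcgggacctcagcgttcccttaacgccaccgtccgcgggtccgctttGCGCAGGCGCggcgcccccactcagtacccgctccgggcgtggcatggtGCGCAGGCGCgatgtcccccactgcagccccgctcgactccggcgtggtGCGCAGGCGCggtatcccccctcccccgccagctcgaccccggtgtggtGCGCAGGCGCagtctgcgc
The match began 110 bases before the start of SDHD and 31 bases before that of UQCRFS1. NDUFB4 had matches at 159 and 63 bases and another, at 8 bases, that ran past the start and is not in capitals, and SDHA had 4 matches, at 166, 117, 68 and 19 bases, within near-repeats of one another. A match is a run of letters in this window and does not show binding. NRF1 itself was lower with both siRNAs, at 18.5, 21.6 and 20.2 CPM under LIMp27 siRNA-1 and 17.8, 18.9 and 18.8 CPM under LIMp27 siRNA-2, against 22.7, 26.9 and 23.4 CPM under control siRNA (−0.27 ± 0.08, edgeR adjusted p = 0.00829, and −0.39 ± 0.09, edgeR adjusted p = 0.000712).

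Genes that serve the chain without being part of it were read from 8 lists, which were chosen with results of these data known. Their counts stand beside 26.5% higher and 28.3% lower of all genes tested under LIMp27 siRNA-1 and 27.7% higher and 29.0% lower under LIMp27 siRNA-2. Of the regulators of respiratory transcription, 6 of 10 were lower and 2 higher under LIMp27 siRNA-1 and 6 lower and 0 higher under LIMp27 siRNA-2. CREB1, a cAMP-responsive activator, had log2 fold changes of −0.54 ± 0.06 (edgeR adjusted p = 6.25e-09) and −0.79 ± 0.07 (edgeR adjusted p = 2.66e-10). PPARGC1A, the coactivator PGC-1alpha, was higher under LIMp27 siRNA-1 (0.36 ± 0.11, edgeR adjusted p = 0.0077) and lower under LIMp27 siRNA-2 (−0.62 ± 0.14, edgeR adjusted p = 0.000261). Of 16 genes of mitochondrial DNA replication and transcription, 3 were higher and 5 lower under LIMp27 siRNA-1 and 3 higher and 7 lower under LIMp27 siRNA-2. TFAM, which packs mitochondrial DNA and starts its transcription, had 115, 116 and 113 CPM under LIMp27 siRNA-1 and 127, 133 and 138 CPM under LIMp27 siRNA-2, against 194, 188 and 189 CPM under control siRNA. Every LIMp27 library was below the control libraries (−0.73 ± 0.04, edgeR adjusted p = 4.01e-14, and −0.51 ± 0.05, edgeR adjusted p = 3.11e-09). MTERF1, a termination factor, was lower with both and most under LIMp27 siRNA-2 (−0.26 ± 0.08, edgeR adjusted p = 0.0084, and −1.06 ± 0.11, edgeR adjusted p = 1.34e-09), and POLRMT, the mitochondrial RNA polymerase, was called in neither (0.01 and 0.05).

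Mitochondrial RNA processing and stability had 2 of 17 genes higher and 8 lower under LIMp27 siRNA-1 and 2 higher and 10 lower under LIMp27 siRNA-2, with medians of −0.14 and −0.23. LRPPRC, which stabilises mitochondrial messengers, had 172, 175 and 177 CPM under LIMp27 siRNA-1 and 217, 207 and 209 CPM under LIMp27 siRNA-2, against 243, 247 and 246 CPM under control siRNA. It was lower with both siRNAs (−0.48 ± 0.04, edgeR adjusted p = 8.16e-11, and −0.21 ± 0.05, edgeR adjusted p = 0.000894). GRSF1, of the mitochondrial RNA granules, had 126, 126 and 128 CPM under LIMp27 siRNA-1 and 85.9, 87.5 and 86.4 CPM under LIMp27 siRNA-2, against 169, 167 and 169 CPM under control siRNA, and it was lower with both (−0.41 ± 0.04, edgeR adjusted p = 5.54e-09, and −0.95 ± 0.05, edgeR adjusted p = 6.99e-15). PNPT1, the polynucleotide phosphorylase, was lower with both (−0.58 ± 0.05, edgeR adjusted p = 5.58e-11, and −0.90 ± 0.06, edgeR adjusted p = 7.76e-13), and FASTK was higher with both (0.28 ± 0.05, edgeR adjusted p = 6.20e-05, and 0.34 ± 0.06, edgeR adjusted p = 5.66e-05).

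Assembly factors were mixed. For complex I 6 of 18 were higher and 4 lower under LIMp27 siRNA-1 and 2 higher and 5 lower under LIMp27 siRNA-2, for complexes II, III and V 3 of 13 were higher and 1 lower and then 3 higher and 4 lower, and for complex IV 6 of 23 were higher and 5 lower and then 7 higher and 7 lower. FOXRED1, a complex I factor, was higher with both (0.56 and 0.38), TMEM126B, of the same complex, was lower with both (−0.40 and −0.53), UQCC1 of complex III was higher with both (0.44 and 0.49), and COA7 of complex IV was lower with both (−0.58 and −0.48). HIGD1A had −1.03 ± 0.07 under LIMp27 siRNA-2 (edgeR adjusted p = 1.10e-12) and −0.13 ± 0.06 under LIMp27 siRNA-1 (edgeR adjusted p = 0.0649). Electron carriers and ubiquinone synthesis had 9 of 18 genes higher and 4 lower under LIMp27 siRNA-1 and 6 higher and 7 lower under LIMp27 siRNA-2. CYCS, cytochrome c, was slightly lower with both (−0.18 ± 0.05, edgeR adjusted p = 0.00233, and −0.13 ± 0.06, edgeR adjusted p = 0.045), and SQOR, which passes electrons from sulfide to ubiquinone, was higher under LIMp27 siRNA-1 (0.39 ± 0.06, edgeR adjusted p = 6.16e-06) and lower under LIMp27 siRNA-2 (−1.23 ± 0.09, edgeR adjusted p = 1.09e-12). Of 14 genes of the tricarboxylic acid cycle, 3 were higher and 4 lower under LIMp27 siRNA-1 and 2 higher and 7 lower under LIMp27 siRNA-2. DLD, the dihydrolipoyl dehydrogenase shared by the oxoacid dehydrogenases, was lower under LIMp27 siRNA-2, at 32.0, 32.6 and 31.5 CPM, against 115, 112 and 112 CPM under control siRNA (−1.81 ± 0.06, edgeR adjusted p = 9.41e-20), and had −0.09 ± 0.05 under LIMp27 siRNA-1 (edgeR adjusted p = 0.119).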

How the data were processed

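RNA-seq counts of WiDr cells were analysed as deposited, in 1 table for each LIMp27 siRNA with the same 3 control libraries in both. The deposited counts are whole reads per gene, not normalized; the deposited normalized signal is the same counts over 1 size factor per library and was only checked, and the authors' FPKM values served for levels between genes. The submitters' processing notes name CASAVA and GRCh38; the aligner, the counting program and its use of strand are not given in the sources used here. The authors' own log2 fold changes and p-values were not used.

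Each pair of groups was compared on its own 6 libraries with edgeR 4.0.16 in R 4.3.3 (TMM, filterByExpr with a minimum count of 10, quasi-likelihood test, Benjamini-Hochberg adjustment over all genes tested, threshold 0.05). The SE is the log2 fold change over the root of F. The fits were also run on counts simulated with independent libraries, a spread estimated by edgeR and few changed genes. That run could not show errors of scaling or shifts of whole libraries, and its outcome is not given here. Gene coordinates were compared with GENCODE 29, where all 99 members had the same start and end. Reads in 20 nuclear copies of mitochondrial genes came to at most 1.24% of those in the 13 mitochondrial genes. Alternatives were RLE size factors, DESeq2 1.42.0, no filter, a fit of all 9 libraries at once, a block for the replicate number, scaling without mitochondrial genes, a log2 fold change limit of 0.5, and leaving out each library and each replicate number. Nuclear copies of the genes were left out of the members.

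The members and lists were chosen with earlier results of these data known. Genes are named by rule: all mitochondrial members; per complex and comparison the called subunit with the lowest adjusted p in each direction; the 5 lowest between the siRNAs; the highest FPKM per complex; every member that is no subunit, and NDUFA4; and up to 2 called genes per list and comparison. NDUFA5, UQCRC2, NDUFV1, NDUFS1, SDHB, ATP5MC1 and ATP5MC3, and the list genes NRF1, LRPPRC, POLRMT and CYCS, were given values outside that rule, some after their values were seen. Results of some genes that the rule names are not reported here.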

Additional observations from a re-analysis of the deposited data

Results flagged for a closer look

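ATP5PB and UQCRC2 were called higher under LIMp27 siRNA-1 and lower under LIMp27 siRNA-2, each against the same control libraries. Their log2 fold change of LIMp27 siRNA-2 over LIMp27 siRNA-1 was −0.62 and −0.26, and both passed edgeR's test of that difference (adjusted p = 1.13e-11 and 0.000114). That test uses the same LIMp27 libraries as the opposite calls, so it is not separate support for them. The call of UQCRC2 under LIMp27 siRNA-2 was lost without replicate 1 of the control siRNA.

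Some reads outside the members were above the control libraries. The 2 mitochondrial rRNA genes took 2.17% of reads on average under LIMp27 siRNA-2 (2.37%, 2.01% and 2.12%), against 1.71%, 1.36% and 1.82% under control siRNA. Nuclear copies of mitochondrial genes, whose reads cannot be told apart from those of the mitochondrial genes at matching bases, did the same. MTATP6P1 averaged 600.3 ± 38.4 CPM under LIMp27 siRNA-1 and 649 ± 70.0 CPM under LIMp27 siRNA-2, against 518 ± 32.1 CPM under control siRNA (SD, n = 3). MTND2P28, a copy that includes MT-ND2 sequence, averaged 39.2 ± 3.66 CPM under LIMp27 siRNA-1 and 43.1 ± 9.37 CPM under LIMp27 siRNA-2, against 27.3 ± 3.43 CPM under control siRNA. Under LIMp27 siRNA-2 alone, MTCO1P12 averaged 44.3 CPM, MTCO3P12 11.9 CPM, MTCO2P12 7.44 CPM and MTND4P12 5.87 CPM, against 30.9, 7.61, 4.68 and 3.73 CPM under control siRNA. Their part in the mitochondrial results was not tested.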

How the results depend on the processing

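No member called in the comparisons above changed sign under any alternative run, but 3 genes that were not called there were called with the opposite sign under LIMp27 siRNA-1 without replicate 3 (MT-ND4L at 0.11, MT-ND4 at 0.12 and MT-ATP8 at 0.17), and their lowest values on leaving out libraries or replicate numbers were −0.20, −0.091 and −0.18. Genes with a log2 fold change of at least 0.5 in size were 3 members under LIMp27 siRNA-1, 5 under LIMp27 siRNA-2 and 5 between the siRNAs, against 46, 38 and 36 called with no such limit. On leaving out single libraries or replicate numbers, the count of mitochondrial genes called ran from 3 to 11 under LIMp27 siRNA-1, from 3 to 8 under LIMp27 siRNA-2 and from 3 to 7 between the siRNAs. The median of the mitochondrial genes ran from −0.060 to 0.17, from 0.00 to 0.24 and from 0.03 to 0.18 there, and that of the nuclear subunits from 0.06 to 0.14, from 0.0080 to 0.076 and from −0.089 to 0.0010. The causes were not tested. Members called ran from 40 to 52, from 29 to 43 and from 25 to 40 in the 3 comparisons. Over all genes tested, the genes called in the same runs ranged from 6594 to 7773, from 6566 to 8004 and from 5169 to 6396. Among values of single named genes, 77 lost and 43 gained a call in the same direction, these 3 gained one in the other, and 1617 kept their side of the threshold. Leaving out a replicate number of both groups lost further calls given above. Under LIMp27 siRNA-2 these included ATP5F1B and MT-CO3 without replicate 1 (edgeR adjusted p = 0.0887 and 0.165). They also included ATP5IF1 without replicate 2 (0.0953) and NDUFA4 without replicate 3 (0.0826). Under LIMp27 siRNA-1, UQCRFS1 was not called without replicate 1 (edgeR adjusted p = 0.0536).

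With the replicate number as a block, 7668 genes were called under LIMp27 siRNA-1, 8249 under LIMp27 siRNA-2 and 6571 between the siRNAs, and 48, 40 and 39 members. The block took away the call of ATP5MF-PTCD1 and added those of COX4I1, COX6C and ATP5MD under LIMp27 siRNA-1, added ATP5F1E and MT-ATP6 under LIMp27 siRNA-2, and between the siRNAs took away NDUFA8 and added NDUFB10, UQCRQ, MT-ND3 and MT-ND6. No pairing of the samples by replicate number was seen. Libraries with the same number correlated at −0.08 to 0.03 in their deviations from the group means. Not every library correlated best with its own number. Such correlations cannot exclude a shared preparation of libraries with the same number.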
